A study of Capra hircus with 6 samples.

Results

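Circular RNAs (circRNAs) that the deposited table places between annotated genes were followed in fibroblasts of goat fetuses (Capra hircus). Fibroblasts are cells of connective tissue and secrete collagen and other extracellular matrix. The table assigns each circRNA to 1 of 5 categories, and every circRNA given the category intergenic was taken, 292 of 3503. The table also holds 2142 exonic, 643 sense overlapping, 235 antisense and 191 intronic circRNAs. The cells are labelled with a fetal age of 50 days. The treated group grew for 10 weeks in medium with serum and 0.5 µg/mL of GO-AgNPs, a nanocomposite of graphene oxide sheets carrying silver nanoparticles. The control group grew for the same time at 0 µg/mL, and both groups were passaged every 2 to 3 days. There are 3 libraries in each group, and the study asked how circRNAs differ after long exposure to a dose that does not kill the cells. The labels name neither the fetuses nor separate cultures, so p-values measure only the spread between these libraries, which may be technical.

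A circRNA forms by back-splicing, in which the spliceosome joins a downstream 5′ splice site to an upstream 3′ splice site and closes the RNA into a ring. A ring has no free ends for exonucleases, so circRNAs are commonly longer lived than linear RNA, and they are found by reads that cross the closing junction. Most known circRNAs are built from exons of protein-coding genes and take the gene's name. An intergenic circRNA overlaps no gene of the annotation used, so it may come from a noncoding or missing transcript, and it has no host gene whose function could be looked up. All 292 carried the source entry of a circRNA not listed before, none had a host gene, and for 100% of them the predicted length equals the genomic span, against 5.32% of the exonic circRNAs. No spliced structure is therefore given for them, and a predicted length is a span. No sequence is printed for any of them, because none was at hand.

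Junction reads over all circRNAs numbered 5597, 6944 and 4807 in control replicates 1 to 3 and 1412, 1289 and 1586 in the treated replicates. A count of 0 allows a share of up to 0.0432 to 0.0624% of junction reads in a control library and 0.189 to 0.233% in a treated one, so a circRNA missing from the treated libraries is less well bounded than one missing from the control libraries. Of 15 fibroblast markers, 12 were listed in the gene table and 9 had reads in all 6 libraries, and their CPM (read counts scaled to a common library total) summed to 14373 to 14673 in control and 16367 to 19768 in treated libraries. The other 3, COL3A1, POSTN and TWIST1, were not listed there and so were not analysed. Markers of other cells rest on few genes. The epithelial markers KRT8 and KRT19 (2 of 6 on that list) summed to 0 in control and 59.5 to 149.5 CPM in treated libraries. The endothelial marker CDH5 (1 of 5) had 29.4 to 44.7 CPM in control and 0 to 24.9 CPM in treated libraries. The blood markers CD14 and CD68 (2 of 6) and the skeletal muscle markers DES and MYH3 (2 of 5) overlapped between the groups. The rest of these lists, with EPCAM, CDH1, PECAM1, PTPRC and MYOD1 among them, was not listed in the gene table and so was not analysed. The part of the epithelial and endothelial markers in the results was not tested. In these bulk libraries fewer cells of a type and less RNA per cell cannot be told apart.

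Intergenic circRNAs took a smaller share of junction reads after exposure, and the direction turned once their most counted circRNA was set aside. They held 1236, 1411 and 1083 junction reads in the control and 224, 200 and 269 in the treated libraries. As a share of all junction reads this was 22.1, 20.3 and 22.5% in control and 15.9, 15.5 and 17.0% in treated libraries. Every treated library lay below every control library, at 16.1% ± 0.754 against 21.6% ± 1.17 (SD, n = 3; p = 0.1 in a two-sided exact permutation test, which cannot give less with 3 libraries a group). A single circRNA, described next, carried 3317 of the 4423 intergenic junction reads, or 75.0%. With that circRNA taken out of both the intergenic reads and the total, 262, 321 and 234 control reads and 92, 81 and 116 treated reads remained, spread over 291 circRNAs. Their share was 5.67, 5.48 and 5.91% in control and 7.19, 6.92 and 8.09% in treated libraries. Every treated library then lay above every control library, at 7.40% ± 0.615 against 5.69% ± 0.215 (SD, n = 3; exact permutation p = 0.1). Counting error alone is not small here: the 95% Wilson interval of control replicate 3 runs from 5.22 to 6.69% and meets those of treated replicates 1 and 2, which begin at 5.90 and 5.61%, but not that of treated replicate 3, which begins at 6.79%. Wilson intervals and other counting limits cover counting error only, since reads without molecular identifiers are not independent molecules.

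The remaining intergenic circRNAs were not the only category with a higher share after exposure. With the same circRNA out of the total, antisense circRNAs held 10.3% ± 1.05 of treated against 5.42% ± 0.676 of control junction reads, and exonic circRNAs held 51.9% ± 2.49 against 62.1% ± 0.858 (SD, n = 3; exact permutation p = 0.1 for each). A share can rise only where another falls, and the junction totals themselves differed, so these shares give the makeup of the circRNA reads and not an amount per cell.

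**Figure D1:**
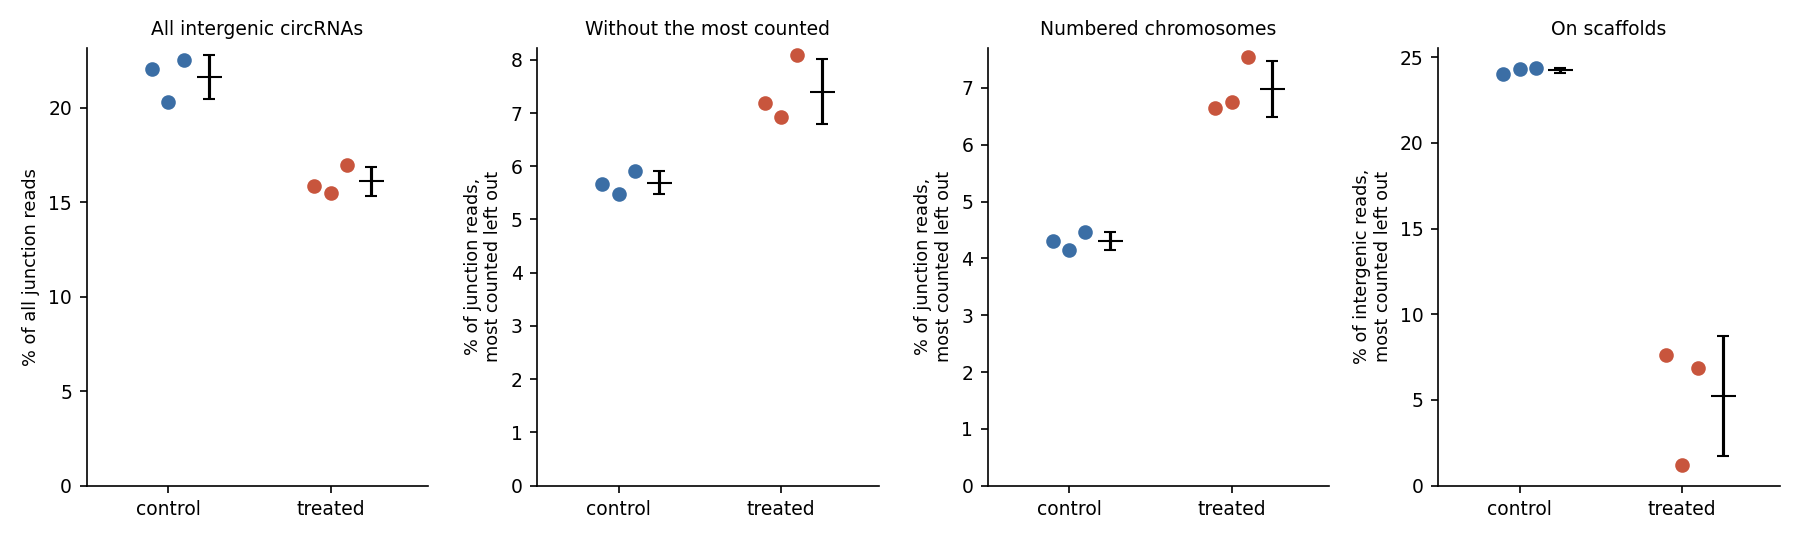
Intergenic circRNAs in each library: the first 3 panels give the percentage of junction reads for all of them, without the most counted one, and on numbered chromosomes without it, and the last panel the percentage of the remaining intergenic reads that lie on scaffolds. Points are libraries, horizontal lines are group means and bars are the SD (n = 3). Treated libraries are below control libraries with all intergenic circRNAs counted and above them with the most counted one left out.

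The most counted intergenic circRNA was also the most counted circRNA of the whole table, ahead of the next with 902 reads. It lies on scaffold LWLT01000027.1 at bases 6635395 to 6636857 of the minus strand and spans 1463 nt. Its junction reads were 974, 1090 and 849 in control and 132, 119 and 153 in treated libraries, and the groups lie far apart. It made up 78.8, 77.3 and 78.4% of the intergenic reads of the control libraries and 58.9, 59.5 and 56.9% of those of the treated libraries (78.1% ± 0.805 against 58.4% ± 1.38, SD, n = 3; exact permutation p = 0.1). Scaled by the group junction totals of 17348 and 4287 reads, the treated level was 0.561 of the control level (95% counting interval 0.505 to 0.623).

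It was the only intergenic circRNA with enough reads to pass the expression filter of the edgeR test, which kept 22 circRNAs of the table. In that fit it was lower in treated cells, with a log2 fold change of -1.37 ± 0.13 SE (edgeR quasi-likelihood test, Benjamini-Hochberg adjusted p = 0.000263). The background is high: 15 of the 22 circRNAs tested were called (68.2%), 10 of them higher (45.5%) and 5 lower (22.7%) in treated cells. The median log2 change of the 22 was 0.79 in that fit, 0.36 with DESeq2 size factors and 1.30 with no scaling factor, and the circRNA stood at -1.37, -1.78 and -0.84 in the same fits. Under every scaling it was therefore below the median of these 22 circRNAs. In wider fits, where many circRNAs have no treated read and their fitted values depend on the prior count, it lay above the median instead, at -1.73 against -4.28 over 360 circRNAs with at least 10 reads and at -1.93 against -2.34 over all 3503.

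A further 23 intergenic circRNAs lie wholly inside the span of the most counted one, 21 of them on its strand and 2 on the other. The 21 on the same strand are short, from 110 to 327 nt with a median of 201 nt, and 6 of them measure 160 to 170 nt. They fall between bases 655 and 1438 of the 1463, counted from the lowest coordinate, and leave the first part of the span empty. Their ends recur. These 21 have 16 distinct starts and 10 distinct ends, and 19 share a start or an end with another. In addition, 8 begin at the base after another ends, 15 touch another end to start on either side, and 20 share or touch an end. The distances between neighbouring cut points were most often 36 bases (4 of 21 gaps), 18 bases (4) and 19 bases (3). Gaps of 55, 56 and 72 bases occurred 2 times each, the other sizes 1 time each, and the widest gap was 88 bases.

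The nested circRNAs were mostly seen in control cells. Their summed junction reads were 31, 40 and 29 in the control and 4, 0 and 2 in the treated libraries. The control libraries held 14 to 16 of them each, and the treated libraries 2, 0 and 1. In all, 21 had reads in the control and 3 in the treated group, 1 in both, and 8 had reads in all 3 control libraries. Control reads only were found for 20 of the 23, in a table where 73.9% of all circRNAs had control reads only and 7.34% had reads in both groups. Since reads inside one span could move with its main circle, they were set against it. The nested reads equalled 3.18, 3.67 and 3.42% of the reads of the most counted circRNA in control and 3.03, 0 and 1.31% in treated libraries. The groups do not overlap, though treated replicate 1 sits just under the lowest control value, and the difference of 3.42% ± 0.244 against 1.45% ± 1.52 had p = 0.1 (SD, n = 3; exact permutation test). At the treated to control ratio of the most counted circRNA, the 100 control reads correspond to 13.9 treated reads, and 6 were counted. Only 6 treated reads stand behind this comparison, and why the nested reads were fewer relative to the main circle was not tested.

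Of the 3 most counted nested circRNAs, 2 abut each other. The one at 6636157 to 6636319 (163 nt) had 5, 7 and 4 reads in control libraries and 0 in all treated ones. The one at 6636320 to 6636484 (165 nt) begins at the next base and had 2, 7 and 4 control reads and 1, 0 and 0 treated reads. The one at 6636103 to 6636264 (162 nt) had 7, 4 and 3 control reads but no treated read, and overlaps the first. All 3 are on the minus strand, and together they lay almost wholly in the control group. The nested circRNAs without a control read were at 6636671 to 6636832 (162 nt; 3, 0 and 0 treated reads) and at 6636265 to 6636484 (220 nt; 0, 0 and 2 treated reads). Each of those was seen in 1 treated library.

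**Figure D2:**
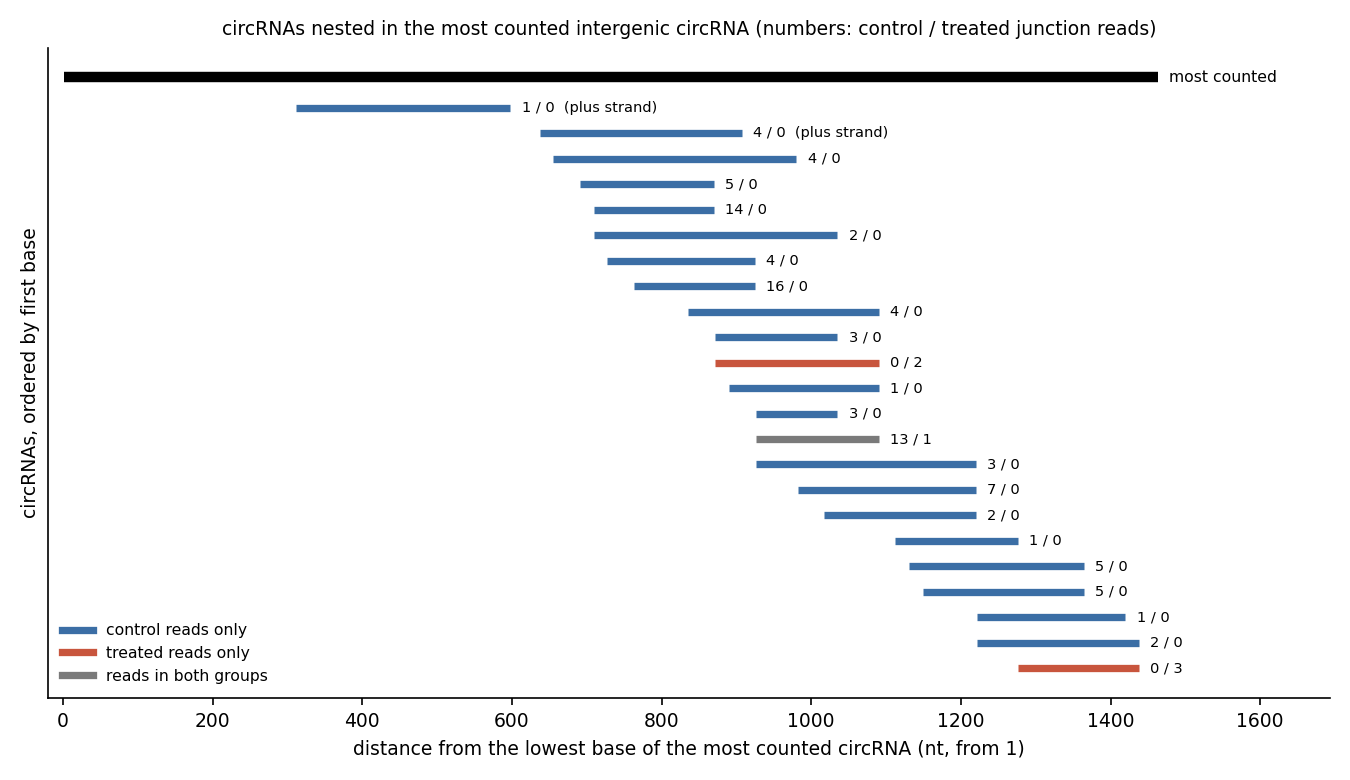
The 23 circRNAs nested in the most counted intergenic circRNA, drawn to scale along its 1463 nt (x axis, distance in nt from its lowest base), 1 line for each circRNA, with control and treated junction reads as numbers. Colours mark circRNAs seen in control libraries, in treated libraries or in both; 20 are of the first kind, and starts and ends fall on recurring positions.

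Scaffolds that are not assigned to a chromosome set the remaining intergenic reads of the groups apart. Of the 292 circRNAs, 244 lie on 29 numbered chromosomes, 47 on 8 scaffolds and 1 on the mitochondrial genome. Of the intergenic reads other than the most counted circRNA, 24.0, 24.3 and 24.4% lay on scaffolds in control and 7.61, 1.23 and 6.90% in treated libraries. The groups are far apart, at 24.2% ± 0.166 against 5.25% ± 3.49 (SD, n = 3; exact permutation p = 0.1). In the other categories the scaffold share overlapped between the groups, at 2.28% ± 0.348 in control and 1.86% ± 0.446 in treated libraries (exact permutation p = 0.4). The numbered chromosomes moved the other way. With the most counted circRNA out of the total, intergenic circRNAs on numbered chromosomes held 4.30, 4.15 and 4.47% of control and 6.64, 6.75 and 7.54% of treated junction reads (4.31% ± 0.161 against 6.98% ± 0.488, SD, n = 3; exact permutation p = 0.1), again with no overlap.

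Scaffolds LWLT01000027.1 and LWLT01000021.1 account for most of this, through few loci. On LWLT01000027.1, most of the remaining intergenic reads were of the circRNAs nested in the most counted one. Those had 31, 40 and 29 reads in control and 4, 0 and 2 in treated libraries. Of the 19, 21 and 19 control reads on LWLT01000021.1, 17, 14 and 14 were of 2 loci described next. LWLT01000027.1 holds 28 intergenic circRNAs, 68.3% of all 41 circRNAs on it, and took 13.4% ± 0.830 of the remaining intergenic reads in control and 2.60% ± 2.30 in treated libraries. LWLT01000021.1 holds 12, or 22.6% of its 53 circRNAs, and took 7.30% ± 0.790 in control and 1.09% ± 1.88 in treated libraries (exact permutation p = 0.1 for both, SD, n = 3). CircRNAs of the other categories on LWLT01000027.1 had 10, 20 and 11 control and 2, 2 and 7 treated reads. On LWLT01000021.1 such circRNAs had 35, 84 and 35 control and 8, 12 and 21 treated reads. Their shares of the junction reads of those categories overlapped between the groups, which at these counts does not exclude a difference. They were at 0.295% ± 0.0661 in control and 0.295% ± 0.205 in treated libraries on LWLT01000027.1 (p = 1, exact permutation test) and at 1.09% ± 0.380 and 1.12% ± 0.461 on LWLT01000021.1 (p = 0.9, exact permutation test).

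Joining intergenic circRNAs within 5000 bases of each other gave 235 loci. Of these, 219 held a single circRNA, 16 held more than 1 and together 73 circRNAs (25% of the 292), and 4 held 4 or more. The largest of them is the locus of the most counted circRNA. The other 3, taken up here because of their size, are on LWLT01000021.1 and on chromosome 29. On LWLT01000021.1 there are 2 neighbouring loci of 4 circRNAs each, all on the minus strand, at 8836154 to 8836441 and at 8845506 to 8849834. The nearest circRNA hosts on either side are ENSCHIG00000004153, which has no symbol, and PHKA1, a regulatory subunit of the kinase that switches on glycogen breakdown. Both loci together had 17, 14 and 14 control reads and 2, 0 and 0 treated reads, so every control library was above every treated one. Their share of junction reads without the most counted circRNA was 0.320% ± 0.0705 in control and 0.0521% ± 0.0902 in treated libraries (SD, n = 3; exact permutation p = 0.1). Within the second locus, the circRNA at 8849559 to 8849739 (181 nt) had 9, 7 and 6 reads in control libraries and 0 in all treated ones. A longer one that begins at the same base and ends at 8849834 (276 nt) had 4, 1 and 2 control reads, also without a treated read. In the first locus, the circRNAs from 8836154 to 8836332 (179 nt; 1, 3 and 3 control reads) and to 8836386 (233 nt; 1, 1 and 3 control reads) likewise share a start and had no treated read.

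The locus on chromosome 29, bases 44091561 to 44097075, had reads in both groups. It holds 13 intergenic circRNAs, 11 on the plus strand, and begins within a circRNA of ENSCHIG00000002870, a gene with no symbol. Chromosome 29 carries 19 intergenic circRNAs, 21.1% of its 90 circRNAs. The locus had 11, 16 and 12 control and 7, 8 and 8 treated reads. As a share of junction reads without the most counted circRNA this was 0.238, 0.273 and 0.303% in control and 0.547, 0.684 and 0.558% in treated libraries. The treated libraries were all higher, at 0.596% ± 0.0760 against 0.271% ± 0.0327 (SD, n = 3; exact permutation p = 0.1). Of the 13, 7 had control reads only and 4 treated reads only, against 73.9% and 18.7% of all circRNAs of the table. The circRNA at 44092362 to 44092526 (plus strand, 165 nt) had 5, 4 and 6 control reads and no treated read. The one at 44092297 to 44092713 (plus strand, 417 nt), which encloses it, had 2, 3 and 4 control reads and no treated read. In the opposite direction, the circRNA at 44096844 to 44097075 (plus strand, 232 nt) had no control read and 1, 4 and 4 treated reads. Beside it on the minus strand, the circRNA at 44096576 to 44096773 (198 nt) was seen in both groups, with 2, 4 and 0 control and 2, 2 and 3 treated reads. Its counts overlap between the groups, and scaled by junction totals the treated level was 4.72 times the control level (95% counting interval 1.36 to 17.0). In the edgeR fit with at least 10 reads required, described below, it was not called. Its log2 fold change there was 1.34 ± 0.94 SE (edgeR adjusted p = 0.234).

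Smaller loci held 3 circRNAs or fewer. The locus on chromosome 4 at 111459929 to 111534682, between circRNAs of AKAP9, a scaffold protein of the centrosome and Golgi, and CDK14, a cyclin-dependent kinase, holds 3 circRNAs with 8, 3 and 3 control reads and no treated read. Those of 36980 and 237 nt begin at the same base. The locus on chromosome 10 at 56121857 to 56126543 holds 3 circRNAs with no control read and 1, 4 and 6 treated reads. The locus on chromosome 21 at 26269089 to 26304849 was seen in both groups, with 2, 2 and 4 control and 1, 1 and 5 treated reads. Outside the most counted circRNA and the 4 largest loci, 203, 251 and 179 control and 79, 73 and 106 treated reads were left. They made up 4.40% ± 0.118 of control and 6.60% ± 0.689 of treated junction reads without the most counted circRNA (SD, n = 3; exact permutation p = 0.1), so the higher treated share did not come from those loci.

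Fewer intergenic circRNAs were detected in treated libraries. At least 1 read was found for 137, 144 and 123 of them in control and 46, 40 and 52 in treated libraries, with no overlap (134.7 ± 10.7 against 46 ± 6, SD, n = 3; exact permutation p = 0.1). With each library thinned to the 1289 junction reads of the shallowest, 49.7 ± 1.18 were detected in control and 43.9 ± 3.93 in treated libraries (SD, n = 3; exact permutation p = 0.1). Over all categories the thinned numbers were 713.0 ± 11.7 and 480.5 ± 45.9 (SD, n = 3; exact permutation p = 0.1). As a share of all circRNAs detected, intergenic ones were higher in treated libraries, at 9.33, 9.09 and 8.92% against 7.68, 7.40 and 7.82% in control (9.11% ± 0.207 against 7.64% ± 0.214, SD, n = 3; exact permutation p = 0.1). After thinning the share was 9.15% ± 0.162 against 6.97% ± 0.283 (exact permutation p = 0.1). This count gives the most counted circRNA no more weight than any other, and its direction is that of the read share without it. A detected circRNA other than the most counted had a mean of 2.03 ± 0.186 reads in control and 2.13 ± 0.125 in treated libraries, which overlap (SD, n = 3; exact permutation p = 0.5).

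Few intergenic circRNAs were seen in both groups. Reads occurred in control libraries only for 207 (70.9%, against 73.9% of all 3503 circRNAs), in treated libraries only for 68 (23.3%, against 18.7%) and in both groups for 17 (5.82%, against 7.34%). Reads in all 3 control and no treated library were found for 42 (14.4%, against 16.4%), and reads in all 3 treated and no control library for 8 (2.74%, against 2.43%). Only 2 had reads in all 6 libraries (0.685%, against 0.914%). These shares are near those of all circRNAs, though treated reads only were somewhat more common among the intergenic ones and control reads only somewhat less. That is the direction of the share of detected circRNAs given above. Whether the pattern of presence sets the intergenic ones apart was not tested. The counts are low: the median intergenic circRNA had 3 reads over the 6 libraries, 143 had 1 or 2 reads (49.0%, against 44% of all circRNAs), 127 were seen in 1 library (43.5%, against 39%), and 21 reached 10 reads (7.19%, against 10.3%). A circRNA with control reads only needs at least 13 of them before the bound defined below puts its treated level under its control level. The treated libraries were shallower, and that bound takes the control reads as exact. The 13 reads were reached by 6 (2.05%, against 2.63%).

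**Figure D3:**
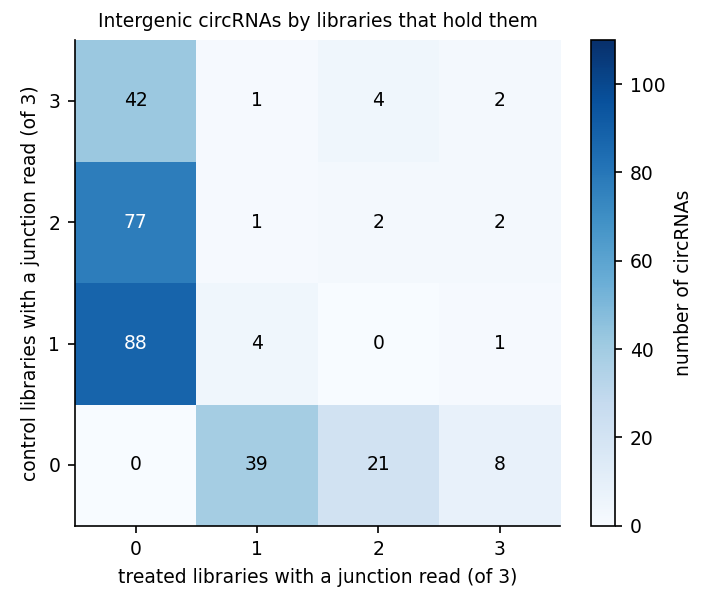
Number of the 292 intergenic circRNAs by how many control libraries (y axis, of 3) and how many treated libraries (x axis, of 3) hold a junction read. The column without treated reads holds 88, 77 and 42 circRNAs seen in 1, 2 and 3 control libraries, and the row without control reads holds 39, 21 and 8.

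The highest bounds on a difference came from circRNAs seen in treated cells only. Bounds set a group without reads to 3 reads over its 3 libraries and scale by the group junction totals. They take the reads of the other group as exact. A limit that included the counting error of those reads would lie nearer to equality, the more so where reads are few. Each value given as at least a fold, here and below, is such a bound. On chromosome 5, the circRNA at 56208942 to 56209543 (minus strand, 602 nt) had no control read and 13, 5 and 3 treated reads. It was present in every treated library and, with its treated reads taken as exact, at least 28.3-fold higher in treated cells. The nearest circRNA host, LRP1, an endocytic receptor, lies 596 kb away. The circRNA at 28283740 to 28283919 of the same chromosome (plus strand, 180 nt) had no control read and 4, 2 and 8 treated reads, at least 18.9-fold higher. Its nearest circRNA host, LETMD1, which encodes a mitochondrial membrane protein, lies 74.5 kb away.

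Other circRNAs of this kind had fewer reads. On chromosome 29, the circRNA at 44096844 already described was at least 12.1-fold higher. On chromosome 10, the circRNA at 56126387 to 56126543 (minus strand, 157 nt) had no control read and 1, 2 and 5 treated reads, at least 10.8-fold higher. It lies 498 kb from a circRNA of USP3, a deubiquitinase that acts on histones. On chromosome 2, the circRNA at 31136527 to 31136705 (plus strand, 179 nt) had no control read and 2, 4 and 1 treated reads, at least 9.44-fold higher, and lies 483 kb from a circRNA of XRCC5, the Ku80 subunit of DNA end joining. Each was present in all 3 treated libraries. The other 3 of the 8 with this pattern had 4 or 5 reads in all.

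The bounds in the other direction are weaker because the treated libraries were shallower. They also leave out the counting error of the control reads, so a bound near 1 does not exclude equality. The circRNA at 8849559 to 8849739 on LWLT01000021.1 was at least 1.81-fold lower in treated cells. On chromosome 21, the circRNA at 21708305 to 21708464 (plus strand, 160 nt) had 8, 4 and 6 control reads and no treated read, at least 1.48-fold lower. It lies 0.857 kb from a circRNA of ZNF592, a zinc finger gene. On chromosome 17, the circRNA at 20387016 to 20391990 (plus strand, 4975 nt) had 8, 3 and 4 control reads and no treated read, at least 1.24-fold lower. The chromosome 29 circRNA at 44092362 was at least 1.24-fold lower and the nested circRNA at 6636157 at least 1.32-fold lower. All of these had reads in every control library.

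For the next circRNAs, which had reads in both groups, the counting interval of the ratio of treated to control level, scaled by junction totals, included equality. On chromosome 7, the circRNA at 94327801 to 94328072 (plus strand, 272 nt), with 36 reads the second most counted intergenic circRNA, had 6, 12 and 12 control and 0, 2 and 4 treated reads. The raw counts do not overlap, but the treated level was 0.809 of the control level (95% counting interval 0.275 to 1.98). On chromosome 2, the circRNA at 70797777 to 70799464 (plus strand, 1688 nt) had 3, 7 and 5 control and 0, 4 and 4 treated reads, and the ratio was 2.16 (0.792 to 5.42). On chromosome 18, the circRNA at 36356777 to 36357551 (plus strand, 775 nt) had 8, 4 and 0 control and 3, 2 and 2 treated reads, and the ratio was 2.36 (0.787 to 6.50). The counts of both overlap between the groups. The chromosome 18 circRNA lies between circRNAs of CBFB, a partner of the RUNX transcription factors, and NFATC3, a calcium-dependent transcription factor.

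Besides the most counted circRNA, reads in all 6 libraries were found for the circRNA on chromosome 15 at 68206004 to 68207539 (minus strand, 1536 nt). It had 1, 5 and 2 control and 3, 1 and 2 treated reads, and the ratio was 3.03 (0.868 to 9.97), and its nearest circRNA host is MTMR2, a phosphoinositide phosphatase. On scaffold LWLT01000425.1, the circRNA at 19363 to 26488 (minus strand, 7126 nt) had 3, 4 and 5 control and 0, 1 and 3 treated reads, and the ratio was 1.35 (0.317 to 4.45). No circRNA with a host was listed on that scaffold.

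**Figure D4:**
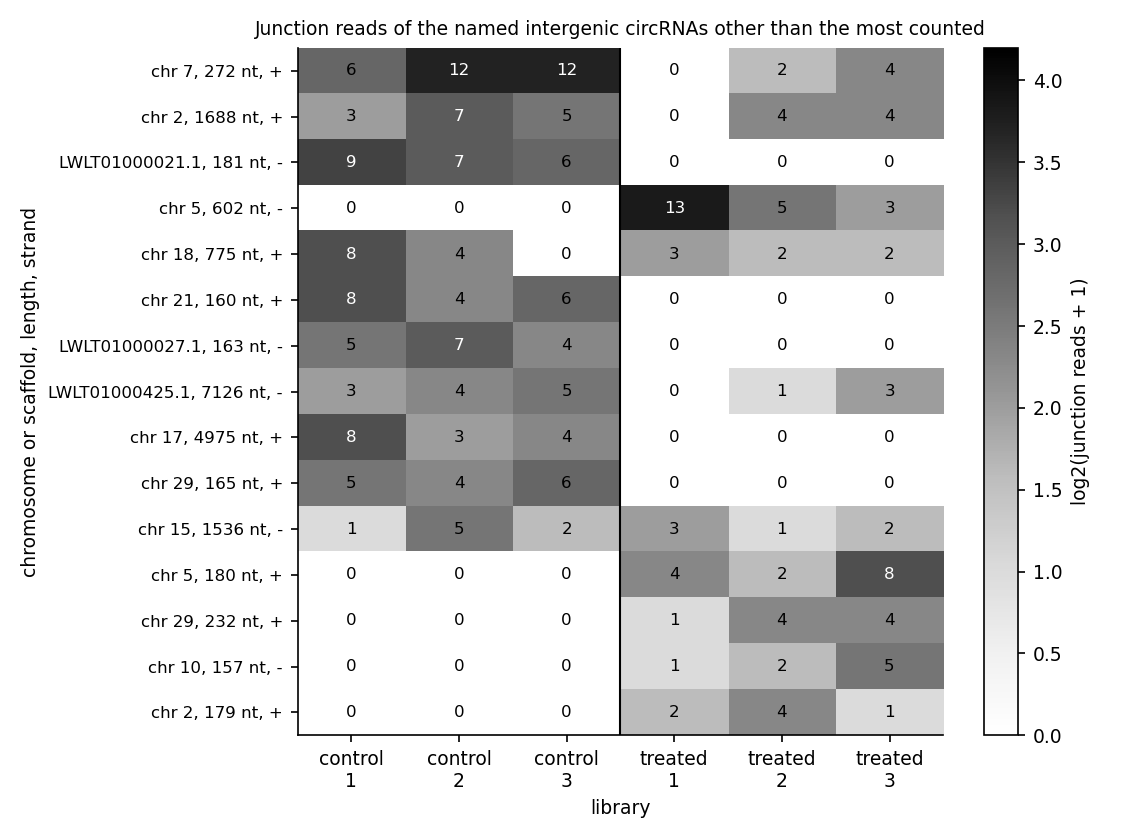
Junction reads of the named intergenic circRNAs other than the most counted (one line each, by chromosome or scaffold, length and strand) in the 3 control and 3 treated libraries; colour is log2 of reads plus 1 and the number in each cell is the count. Lines empty on one side of the black divider are circRNAs seen in 1 group, such as the chromosome 5 circRNA of 602 nt with 13, 5 and 3 treated reads.

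A fit with a lower filter, at least 10 reads over the 6 libraries, tested 360 circRNAs of the table and called 56 (15.6%), 31 of them higher (8.61%) and 25 lower (6.94%) in treated cells. It tested 21 intergenic circRNAs and called 4, 2 in each direction, which is near that background. The most counted circRNA was called lower (edgeR quasi-likelihood test, adjusted p = 0.000369). The chromosome 5 circRNA at 56208942 was called higher (edgeR adjusted p = 0.0107; 0.000357 to 0.0321 over the alternatives). The one at 28283740 was called higher (edgeR adjusted p = 0.0183; 0.00212 to 0.0691 over the alternatives), and the call was lost without treated replicate 3, which holds 8 of its 14 reads. The LWLT01000021.1 circRNA at 8849559 was called lower (edgeR adjusted p = 0.0361, and 0.00861 to 0.282 over the alternatives). That call was lost without any one of the treated libraries, at edgeR adjusted p of 0.0542, 0.0712 and 0.0856 without treated replicates 1, 2 and 3. It was also lost with no scaling factor (0.0805), with the replicate number as a block (0.0911) and in the DESeq2 Wald test (0.282). A further 4 circRNAs had edgeR adjusted p from 0.0505 to 0.0511: the nested one at 6636157, the chromosome 21 one at 21708305, the chromosome 29 one at 44092362 and one on chromosome 23 at 15049578 to 15049734 (minus strand, 157 nt) with 6, 4 and 0 treated reads and no control read. The chromosome 23 circRNA is named only because of this value, and it overlaps a circRNA of NQO2, a quinone reductase. Leaving out control replicate 1, 2 or 3 gave 9, 10 and 12 intergenic calls, and leaving out a treated replicate gave 3 each time. The number of intergenic calls thus changed by more than 1.5 times with any control library left out. Calls over the whole table moved as well. Without control replicates 1 to 3 they were 42, 38 and 42 higher and 79, 73 and 114 lower, of 360, 358 and 359 tested. Without treated replicates 1 to 3 they were 28, 23 and 22 higher and 9, 8 and 7 lower, of 360 each. The changes are therefore not particular to the intergenic circRNAs. With no filter, 35 of 3503 circRNAs were called (0.999%), 24 of them higher (0.685%) and 11 lower (0.314%), and 3 of these were intergenic, the most counted one and those on chromosome 5.

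Intergenic circRNAs were short by their spans, with a group of very long ones. The median was 233 nt, with quartiles at 176 and 798.75 nt, the shortest was 100 nt (chromosome 11, 44355961 to 44356060, minus strand; 0, 2 and 0 treated reads) and the longest 92738 nt (chromosome 7, 17534075 to 17626812, plus strand; 1, 0 and 0 treated reads). Both ends of the range rest on a single treated library. Spans from 150 to below 200 nt were found for 105 (36.0%), 8 were shorter, and 31 (10.6%) were longer than 5000 nt. In this the intergenic circRNAs resembled the antisense ones, with a median of 240 nt and 37.9% in that window, and the intronic ones, with 205 nt and 44.0%. Exonic circRNAs had a median of 558 nt with 2.19% in that window, and sense overlapping ones a median of 9314 nt with 62.8% longer than 5000 nt. Libraries were read for 150 cycles per the labels, so the lower edge of that window lies at the read length, and whether the read length set it was not tested.

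The lengths and strands of the intergenic reads overlapped between the groups. Without the most counted circRNA, spans longer than 5000 nt took 13.4, 10.9 and 10.3% of control and 16.3, 12.3 and 8.62% of treated intergenic reads (11.5% ± 1.64 against 12.4% ± 3.84, SD, n = 3; exact permutation p = 0.8). Spans from 150 to below 200 nt took 36.4% ± 1.64 and 34.1% ± 3.06 (exact permutation p = 0.4). The plus strand took 51.3% ± 1.28 and 48.8% ± 5.64 (exact permutation p = 0.7), and 146 of the circRNAs lie on each strand.

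**Figure D5:**
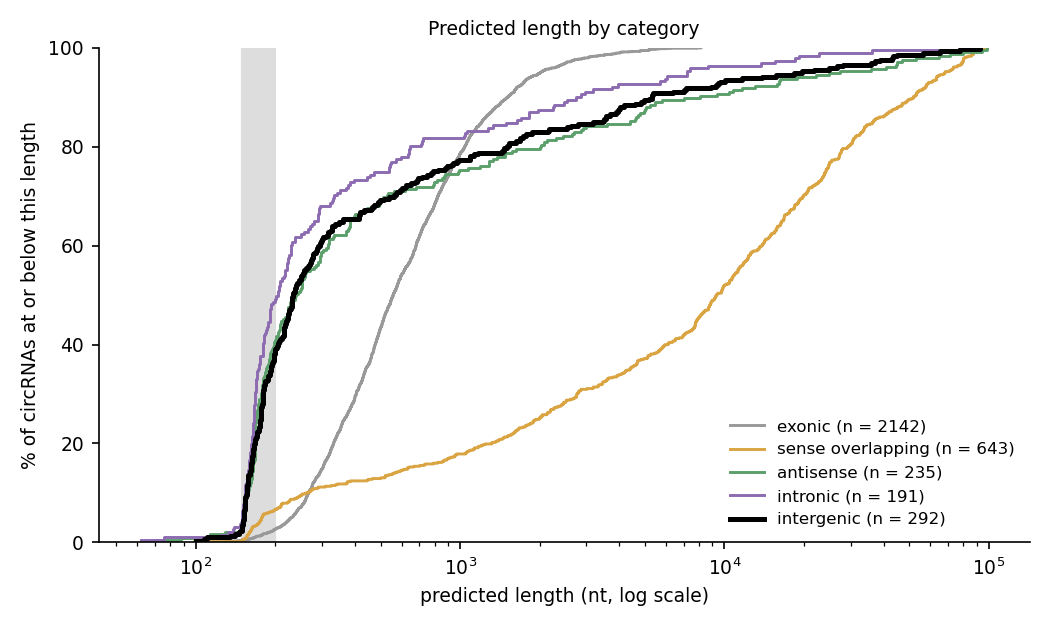
Cumulative share of circRNAs (y axis, %) at or below a predicted length (x axis, nt, log scale) for each category, with the window from 150 to below 200 nt shaded. The curves of intergenic, antisense and intronic circRNAs rise steeply through the window, where 36.0, 37.9 and 44.0% of them lie, while the exonic curve rises around 558 nt.

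Some intergenic circRNAs lie next to circRNAs with a known host. The distance to the nearest circRNA of another category was known for 286 and had a median of 200.2 kb; 41 lay within 10 kb, 104 within 100 kb and 18 farther than 1000 kb. Of the 292, 12 overlapped a circRNA of another category on their own strand and 0 on the other strand. The examples next to collagen circRNAs described here were picked after their positions and counts were seen, and nothing was tested about such neighbours. On chromosome 19, 3 intergenic circRNAs at 36122392 to 36123575 begin 0.119 kb beyond a circRNA of COL1A1, which encodes the main chain of fibrillar collagen I, and had 4, 2 and 2 control reads and no treated read. On chromosome 1, the circRNA at 145799642 to 145799794 (minus strand, 153 nt) lies 0.072 kb from one of COL6A2, a chain of the microfibrillar collagen VI, and had 0, 2 and 1 treated reads and no control read. On chromosome 2, the circRNA at 129169397 to 129169627 (plus strand, 231 nt) overlapped one of COL5A2, a chain of collagen V, with 1, 1 and 0 control and 1, 0 and 1 treated reads. These counts are low, at 8 reads or fewer for each.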

How the data were processed

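Junction reads were counted in 6 libraries of ribosomal RNA-depleted, stranded total RNA. The authors deposited raw counts of back-splice junction reads for 3503 circRNAs and raw counts for 11374 genes, per the file headers, and the gene counts were used only for cell type markers. The 12 normalized or log-scale columns of single libraries in these tables were not used, nor was the lncRNA table. BWA, CASAVA 1.8 and a human build, hg19, appear in the submitters' processing notes. For the circRNA caller, the annotation and the goat build, the entry is: not given in the sources used here. Therefore coordinates are printed as deposited, with starts counted from 1 and no build, and distances to host genes are between circRNAs of the table.

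All circRNAs were fitted together with edgeR 4.0.16 (R 4.3.3; glmQLFit, glmQLFTest, TMM, filterByExpr at a minimum of 10 reads, library size the table total, Benjamini-Hochberg threshold 0.05). Standard errors were derived from the F statistic. The step was also run on simulated counts with means set at 20 times those of these data. That run therefore does not show how the fit behaves at the low counts here. Values per library were tested by permuting the group labels, two-sided and exact, over 20 assignments (scipy 1.17.1), with 10 assignments when a library was left out. Ratios are of group sums scaled by group junction totals with exact 95% counting intervals. A group at 0 was set to 3 reads, with the count of the other group taken as exact. Libraries of a group differed beyond sampling noise in every pair (chi-square on low counts, largest p = 0.00133), so the permutation tests take 1 value per library. The ratios and bounds pool the libraries of a group. Their limits leave out this spread and are too narrow for it. Alternatives were DESeq2 1.42.0 size factors and Wald test, no scaling factor, other filters, the replicate number as a block, the most counted circRNA left out, and each library left out.

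The circRNAs named were those passing the filter, the 12 most counted (1 of those tied at 14 reads for the last place), up to 5 of each pattern of presence in 1 group or in all 6 libraries, those overlapping or sharing an end with them, the shortest and the longest. The circRNAs, lists and rule were chosen with earlier results of these data known. Some neighbouring host genes are not reported here.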

Additional observations from a re-analysis of the deposited data

How the results depend on the processing

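The lower intergenic share of junction reads (difference -5.53 percentage points, treated minus control) turned to 1.71 with the most counted circRNA out of the intergenic reads and the total, to 1.98 with it kept in the total, and to 2.66 on numbered chromosomes alone. It was -13.1 over circRNAs with at least 10 reads. With at least 2 reads required for detection, the difference in the number detected was -39 (-88.7 with 1 read) and in the share of detected circRNAs 3.28 (1.48 with 1 read). Leaving out each library kept its direction (-6.19 to -5.09), as it did for the share without the most counted circRNA (1.37 to 1.95), the share of detected circRNAs (1.36 to 1.57), the number detected (-94.5 to -84), the share on scaffolds (-20.2 to -17.0), the share of the most counted among intergenic reads (-20.2 to -18.9), the share on numbered chromosomes (2.39 to 2.84), the nested reads (-2.77 to -1.25), the chromosome 29 locus (0.281 to 0.350) and the loci of LWLT01000021.1 (-0.320 to -0.242). The share of reads on spans over 5000 nt (0.917) turned to -1.02 without treated replicate 1 and ran from -1.02 to 2.82 with libraries left out; the groups overlapped throughout.

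In the edgeR test, 1 intergenic circRNA was called, 3 with no filter, 4 with at least 10 reads required, and 0 with the most counted left out, since no intergenic circRNA was then tested. Leaving out a library gave 1 intergenic call, or 2 without treated replicate 3, and 3 to 12 with at least 10 reads required. Over the table, the fits without control replicates 1 to 3 called 6, 6 and 6 circRNAs higher and 2, 1 and 2 lower, of 11 each. Without treated replicates 1 to 3, 10, 9 and 14 were called higher and 11, 14 and 12 lower, of 44, 42 and 48. Calls over the table with at least 10 reads required are given above. The log2 fold change of the most counted circRNA ran from -1.93 (no filter) to -0.84 (no scaling factor) and stayed past the threshold throughout. Same-numbered libraries correlated at 0.200, -0.013 and 0.180 over circRNA deviations and below 0 over genes. The bar was 0.1 in every pair, and the replicate 2 pair over circRNAs and all pairs over genes fell short of it. Replicate numbers were therefore not treated as pairs. The fit with the replicate number as a block gave -1.37 (adjusted p = 0.000144) and 1 call, or 3 calls with at least 10 reads required, where the LWLT01000021.1 circRNA at 8849559 was at adjusted p = 0.0911. Depth limits most values: a treated library holds 1289 to 1586 junction reads, the smallest p of the permutation test is 0.1, and most intergenic circRNAs have too few reads for any test.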
